A study of Homo sapiens with 6 samples.

Results

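The transcripts described here encode 41 Polycomb and Trithorax regulators of HOX genes, chosen by symbol. Each symbol was matched through its Entrez identifier to a row of the deposited RNA-seq tables, and all 41 were found among the 27434 rows. HT-29, a human colon adenocarcinoma cell line, was transfected for 48 h with 10 nM of a non-targeting siRNA pool (siNT), of a pool against the antisense lncRNA HOXA-AS3 (siHOXA-AS3), or of a pool against its counterpart HOXB-AS3 (siHOXB-AS3). Each condition has 2 polyA libraries labelled as replicates, and nothing says that they came from separate cultures, so a p-value measures the spread between these libraries, which may be technical. The study's methods state a higher siRNA dose than the labels do. A KD here is a transient transfection of 1 line, and both KDs are compared with the same siNT libraries.

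Polycomb proteins keep genes silent through a pair of complexes. PRC2 methylates histone H3 on lysine 27, and PRC1 places ubiquitin on histone H2A and compacts chromatin. Trithorax proteins oppose them, mainly as COMPASS-type complexes that methylate histone H3 on lysine 4, while the KDM6 enzymes remove methyl groups from lysine 27. HOX clusters are the classical targets of both groups, and CTCF bound within the clusters separates silent from active domains.

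The oligonucleotides that define the KDs are shown because seed pairing can also touch other transcripts, members of this group included. Capitals mark the bases that pair with the guide seed in the sense strands of the HOXA-AS3 pool, and the seed itself (guide bases 2 to 8) in the guide strands of the HOXB-AS3 pool.
HOXA-AS3 oligo 1: gagacagaauaGCGAACAa
HOXA-AS3 oligo 2: caauggaagggCCGAACAa
HOXA-AS3 oligo 3: aggaaaggacaGCGAAGCu
HOXA-AS3 oligo 4: guagacagggcACUCGUUa
HOXB-AS3 oligo 1: aCUUUGUCucccuuugucguu
HOXB-AS3 oligo 2: uUUCUUUCaugcccgacucuu
HOXB-AS3 oligo 3: uUUCCCUUcaccccuugacuu

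Exact 7-base matches to these seeds were sought on the sense strand of the 3' UTRs that GENCODE v29 (build GRCh38) annotates. A match to any HOXA-AS3 seed was found in 3 of 41 members (CBX6, ASH1L and CTCF), or 7.32%, against 5.39% of 11673 genes. A match to any HOXB-AS3 seed was found in 21 of 41 members, or 51.2%, against 39.5% of genes. The median log2 fold change after siHOXB-AS3 was -0.04 in the 21 members with a match and 0.05 in the 20 without. CBX2, picked because it had the lowest fold change of all members after siHOXB-AS3, holds 1 match, to oligo 1. Matches to oligo 1 were found in 2 of 41 members (4.88%), against 11.4% of genes. The CBX2 match is shown here in capitals.
CBX2 3' UTR: tggggaagctgGACAAAGtctagggggcc
PHC3, which had higher counts after siHOXB-AS3, holds 6 matches to that pool in a 3' UTR of 9649 bases. At least 1 of them is to each of the pool's 3 seeds. A match is a description of letters, and its part in any difference was not tested.

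The targeted RNAs were read first. The HOXA-AS3 row held 38 and 18 expected counts (RSEM's estimated fragments per row) in siNT and 12 and 12 in siHOXA-AS3, a log2 fold change of -1.09 ± 0.40 (SE). Its Benjamini-Hochberg adjusted p was 0.711 in edgeR's quasi-likelihood test, so the HOXA-AS3 KD was not called at these counts. HOXB-AS3 held 303 and 213 counts in siNT and 67 and 76 in siHOXB-AS3, a log2 fold change of -1.96 ± 0.25 (edgeR adjusted p = 0.0678). Libraries held 15998518 to 26263938 counts. The epithelial markers EPCAM, CDH1, KRT8, KRT18 and KRT20 were at 122 FPKM or more in every library, whereas the intestinal factor CDX2 was at 0.10 to 0.34 FPKM. Of the 6 fibroblast markers COL1A2, DCN and PDGFRB were at 0 throughout, and their sum was at most 0.15 FPKM. The endothelial sum was at most 0.07 FPKM, and the pan-leukocyte gene PTPRC was at most 0.10 FPKM. In the immune list, LYZ stood at 718 to 1172 FPKM.

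Levels are compared between genes in FPKM, which is scaled by length, as the mean ± SD of the 2 siNT libraries. All 41 members had enough counts to be tested, and 21 of them lay at 10 FPKM or above in siNT (51.2%, against 41.6% of all rows tested). EZH2, the H3K27 methyltransferase of dividing cells, stood at 36.2 ± 1.72 and its paralog EZH1 at 7.52 ± 0.283. The EZH2 to EZH1 ratio was 4.84 and 4.78 in siNT. Among the obligate PRC2 partners, the histone-binding RBBP7 (123 ± 6.80) and RBBP4 (41.6 ± 0.778) and the scaffold SUZ12 (37.2 ± 6.92) were well above EED (5.83 ± 1.08), the subunit that reads trimethylated lysine 27. RBBP4 and SUZ12 have near-identical copies elsewhere in the genome, and whether these shared reads with them was not tested. Of the accessory subunits, PHF19 (69.6 ± 11.1) was far above PHF1 (10.1 ± 0.877), MTF2 (4.96 ± 1.32), AEBP2 (4.70 ± 0.651) and JARID2 (2.04 ± 0.127), of which MTF2 and AEBP2 do not differ beyond their spread.

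In PRC1, the catalytic RING1 (23.4 ± 0.262) was above RNF2 (16.9 ± 2.14). PCGF proteins pair with RING1 or RNF2 and set which PRC1 form assembles. The row that joins BMI1 (PCGF4) with its neighbour COMMD3 (95.7 ± 3.73), PCGF1 (79.0 ± 2.87) and PCGF5 (73.5 ± 3.70) led, followed by PCGF2 (59.1 ± 4.68), and PCGF6 was lowest at 1.95 ± 0.255. The chromodomain readers were all low, with CBX8 at 3.13 ± 0.339, CBX6 at 2.38 ± 0.332, CBX2 at 0.900 ± 0.127 and CBX7 at 0.490 ± 0.184. Of the polymerising PHC proteins, PHC2 stood at 48.4 ± 2.83, PHC3 at 7.19 ± 0.877 and PHC1 at 0.160 ± 0.127. Thus CBX2, CBX7 and PHC1 were the 3 members under 1 FPKM, and PHC1 rested on 6 to 33 counts a library.

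On the Trithorax side, DPY30 (83.9 ± 5.74) exceeded the other shared COMPASS subunits WDR5 (14 ± 1.29), ASH2L (9.68 ± 0.707) and RBBP5 (5.18 ± 0.771). The methyltransferases ranged from 22.1 ± 1.54 for KMT2C and 20.8 ± 1.07 for KMT2A, which do not differ beyond their spread, through ASH1L (17.2 ± 1.10) and KMT2D (7.57 ± 0.0778), to KMT2B (5.46 ± 0.771) and SETD1A (5.19 ± 0.339). The demethylases KDM6A and KDM6B stood at 6.82 ± 0.325 and 5.29 ± 0.0778. MEN1, which ties KMT2A and KMT2B to chromatin, was at 14.8 ± 0.191, CXXC1, the CpG-binding subunit of the SETD1 complexes, at 3.52 ± 0.226, and CTCF at 43.2 ± 0.141.

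**Figure D1:**
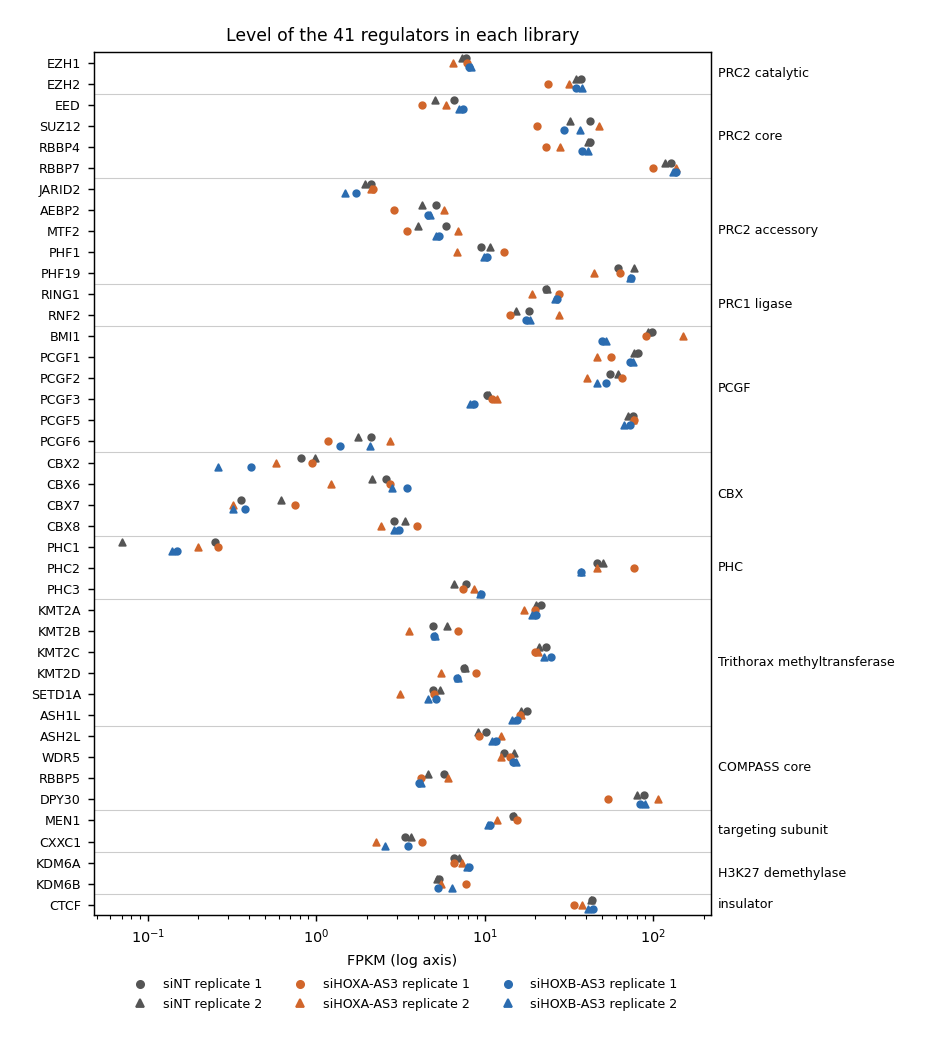
FPKM of each regulator in each of the 6 libraries (log axis), grouped by role, with colour for the siRNA pool and shape for the replicate. RBBP7 lies near 100 or above in every library, while the CBX genes and PHC1 lie below 4.

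After siHOXA-AS3, the PRC2 subunit RBBP4 and the PRC1 subunit PCGF1 were lower in both KD libraries than in both siNT libraries, and no regulator passed the test. With edgeR's quasi-likelihood test, 0 of 41 members had an adjusted p under 0.05, as for 0 of 13034 genes tested (0.0%), and DESeq2 also called 0 members (0.453% of all genes). At an unadjusted p under 0.05 there were 2 members (4.88%), RBBP4 and PCGF1, against 6.16% of all genes. The median log2 fold change over the members was -0.06, against 0.01 over all genes. In 3 members both KD libraries were above both siNT libraries (background 12.5%) and in 7 both were below (background 16.1%), so neither count stood above its background by more than 1 member.

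RBBP4, the histone chaperone subunit shared by PRC2 and other complexes, had 324 and 318 CPM (counts scaled to library size with TMM factors) in siNT. It had 180 and 219 in siHOXA-AS3 and 304 and 330 in siHOXB-AS3. The siHOXA-AS3 libraries were the only low ones, 37.9% below siNT (log2 fold change -0.69 ± 0.16 SE, edgeR adjusted p = 0.517, unadjusted p = 0.00338). Between the KDs, RBBP4 was 0.67 ± 0.16 higher on the log2 scale in siHOXB-AS3 (edgeR adjusted p = 0.0933). PCGF1, the partner that defines the KDM2B-containing PRC1, had 62.5 and 60.1 CPM in siNT, 43.8 and 36.1 in siHOXA-AS3 and 58.3 and 61.7 in siHOXB-AS3. Again only siHOXA-AS3 was low (log2 fold change -0.62 ± 0.18, edgeR adjusted p = 0.615). With the GC trend of each library removed, edgeR called these as the 2 members of this comparison, RBBP4 at an adjusted p of 0.0123 and PCGF1 at 0.0417, where 3.52% of all genes were called. Both stayed below siNT with either siHOXA-AS3 library left out. Without replicate 1 the log2 fold change was -0.56 for RBBP4 and -0.77 for PCGF1, and without replicate 2 it was -0.83 and -0.48. In these fits the lone library is assumed to vary like the other groups.

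EZH2 had 94.0 and 88.2 CPM in siNT, 60.1 and 81.2 in siHOXA-AS3 and 90.3 and 98.8 in siHOXB-AS3. The siHOXA-AS3 values were below all others, but lay far apart (log2 fold change -0.37 ± 0.20, edgeR adjusted p = 0.888). EZH1, the paralog of resting cells, had 34.7 and 33.0 CPM in siNT, 35.4 and 29.5 in siHOXA-AS3 and 37.4 and 38.8 in siHOXB-AS3, which overlap between siNT and siHOXA-AS3. The EZH2 to EZH1 ratio in FPKM was 3.06 and 4.91 in siHOXA-AS3 and 4.31 and 4.53 in siHOXB-AS3. EZH2 is regulated with the cell cycle, so a list of 14 replication and proliferation genes was read beside it. After siHOXA-AS3, 13 of the 14 had a fold change below 0, with a median of -0.57. An unadjusted p under 0.05 was reached by 6 (6.16% of all genes), and an adjusted p under 0.05 by 0. In 8 genes both KD libraries were below both siNT libraries (16.1% of all genes), and in 0 both were above (12.5%). Some genes of the list differed between the siHOXA-AS3 libraries, in either direction, with TOP2A at 53.1 and 98.8 FPKM and MCM7 at 23.2 and 13.9. Others lay closer together and below siNT. TYMS had 36.5 and 31.3 FPKM against 69.5 and 74.5 in siNT, and MKI67 70.4 and 67.2 against 111 and 104. In siHOXB-AS3, TYMS stood at 92.7 and 110 FPKM and MKI67 at 64.8 and 62.7, so MKI67 was lower than siNT in both KDs. After siHOXB-AS3, 10 of the 14 genes had a fold change above 0 and 4 below, with a median of 0.19, and 0 were called. Without overlap, 7 were higher and 2 lower (30.9% of all genes on each side). The part of these values in the EZH2 and RBBP4 values was not tested, and bulk RNA cannot tell fewer cells of a state from less RNA per cell.

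PHF19, a PRC2 accessory protein that binds methylated lysine 36, had 85.3 and 101 CPM in siNT and 81.7 and 57.0 in siHOXA-AS3. The KD libraries were lower without overlap, the first of them only just (log2 fold change -0.42 ± 0.22, edgeR adjusted p = 0.873). In siHOXB-AS3 it stood at 94.5 and 91.9. Of the 3 members higher without overlap, the demethylase KDM6B had 34.6 and 34.1 CPM in siNT and 50.9 and 36.0 in siHOXA-AS3 (log2 fold change 0.34 ± 0.23, edgeR adjusted p = 0.948). The first KD library carries that difference. PCGF3 had 61.2 and 62.9 in siNT and 65.8 and 70.7 in siHOXA-AS3 (0.14 ± 0.17), and JARID2, which helps recruit PRC2, 12 and 10.8 against 12.4 and 12.3 (0.11 ± 0.21). Neither passed the test (edgeR adjusted p = 0.997 for both). CTCF had 151 and 149 CPM in siNT, 120 and 132 in siHOXA-AS3 and 161 and 148 in siHOXB-AS3, so siHOXA-AS3 was lower without overlap (log2 fold change -0.25 ± 0.15, edgeR adjusted p = 0.922).

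**Figure D2:**
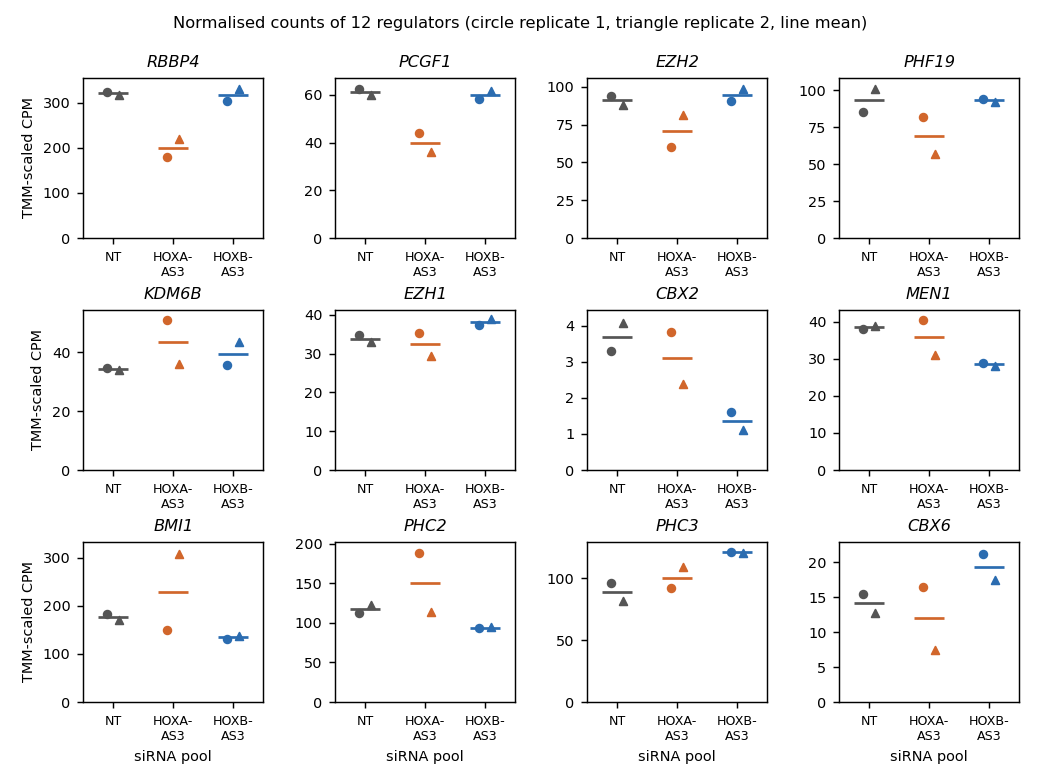
TMM-scaled CPM of 12 regulators in each library (points) with the mean of each pair (line), axes from 0. In RBBP4 and PCGF1 the siHOXA-AS3 pair lies below the other 4 libraries, and in CBX2 and MEN1 the siHOXB-AS3 pair does.

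The 2 siHOXA-AS3 libraries disagreed for many of these genes, in an order that follows base composition. In 20 of 41 members 1 siHOXA-AS3 library lay above both siNT libraries and the other below both, as for 42.5% of all genes tested. In siHOXB-AS3 this held for 3 members (RBBP4, PCGF6 and CTCF), against 5.13% of all genes. Of the 16 members with under 45% GC in the longest annotated transcript, all 16 were higher in siHOXA-AS3 replicate 2 than in replicate 1. Of the 17 with over 55% GC, all 17 were higher in replicate 1, and the 8 between split 4 to 4. SUZ12 (38.0% GC) thus had 88.0 and 207 CPM around siNT values of 180 and 139, and RNF2 (38.1% GC) 48.1 and 95 around 62.1 and 52.2. In the opposite sense, KMT2B (63.5% GC) had 57.3 and 29.9 around 40.3 and 49.6, and PHF1 (59.9% GC) 27.9 and 14.8 around 20.1 and 23.0. Across the 41 members, which share libraries and are not replicates, the log2 difference of replicate 2 from replicate 1 correlated with GC at Pearson's r = -0.89 in siHOXA-AS3, 0.48 in siNT and -0.34 in siHOXB-AS3, and over all genes with a GC value at -0.76, 0.43 and -0.15.

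**Figure D3:**
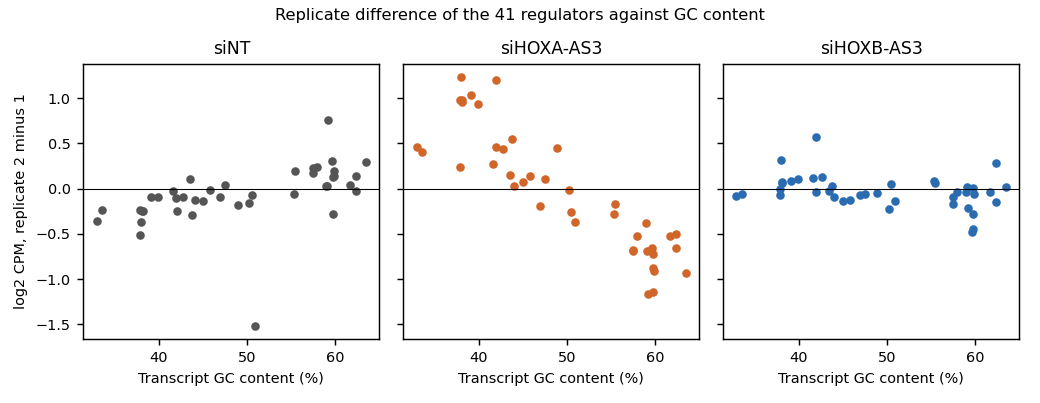
Log2 CPM of replicate 2 minus replicate 1 for each of the 41 regulators against the GC content of its longest annotated transcript (%), 1 panel per siRNA pool. The siHOXA-AS3 points fall from above 0 at low GC to below 0 at high GC.

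**Figure D4:**
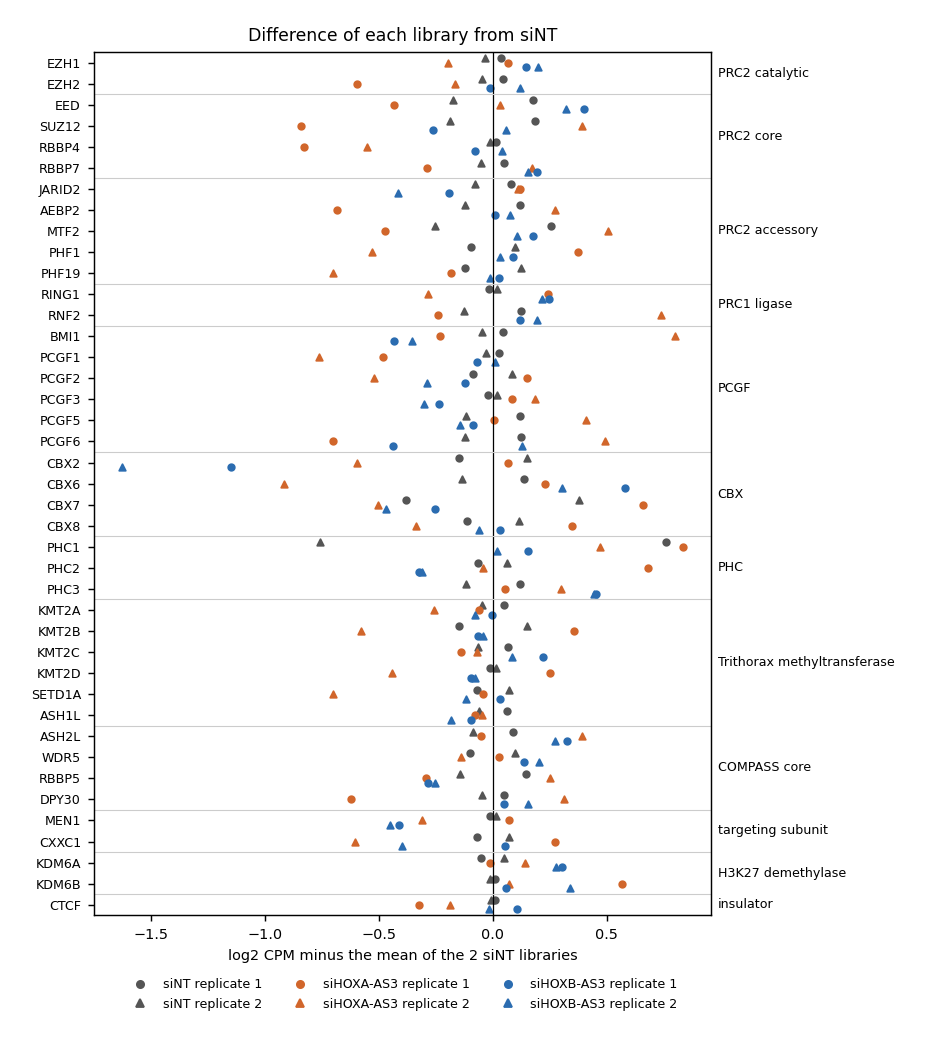
Log2 CPM of each library minus the mean of the 2 siNT libraries, for each regulator by role, with colour for the siRNA pool and shape for the replicate. Many siHOXA-AS3 pairs straddle 0. In 20 of 41 members 1 siHOXA-AS3 library is above both siNT libraries and the other below both (42.5% of all genes). RBBP4 and PCGF1, and others such as EZH2 and CTCF, lie wholly below 0, and CBX2 lies lowest in siHOXB-AS3.

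Accordingly, the calls in siHOXA-AS3 depended on which library was kept. Without replicate 1, edgeR called 12 members against siNT (30.3% of all genes were called), and without replicate 2 it called 8 (17.9%). The lists shared RBBP4 and PCGF1 alone, with the same direction in both. EZH2 was among the calls without replicate 2 (log2 fold change -0.59, edgeR adjusted p = 0.00256) and not without replicate 1 (-0.17, edgeR adjusted p = 0.334). The row that joins BMI1 with COMMD3 was at 0.80 without replicate 1 and at -0.23 without replicate 2.

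After siHOXB-AS3, the PRC1 genes CBX2 and PHC2 and the Trithorax subunit MEN1 were lower in both KD libraries than in siNT. The row that joins BMI1 with COMMD3 was also lower, and the PRC1 genes CBX6 and PHC3 were higher. The siHOXB-AS3 libraries were close to each other, with an SD of 0.18 (log2) for the replicate difference over the 41 members, against 0.33 in siNT and 0.68 in siHOXA-AS3. In the test over all 6 libraries 0 of 41 members were called by edgeR, where 8 of 13034 genes were (0.0614%), and DESeq2 called 0 members (2.73% of all genes). At an unadjusted p under 0.05 there were 2 members, CBX2 and PHC3 (4.88%, against 12.2% of all genes). The members' median log2 fold change was -0.02, against -0.01 over all genes. Without overlap, 12 members were higher and 10 lower, where 30.9% of all genes were on each side, so 53.7% of members against 61.8% of all genes differed without overlap. At least 1.5-fold either way was reached by 1 member, CBX2 (2.44%, against 16.9% of all genes). Of the 8 colon epithelial markers, 1 was called in these libraries: CEACAM5 fell (log2 fold change -1.63, edgeR adjusted p = 0.0492). Of the other markers, EPCAM was at -0.81, CDX2 at -0.78 with hardly any expression, CDH1 at -0.46, VIL1 at -0.16, KRT20 at -0.11, KRT18 at 0.14 and KRT8 at 0.20, none of them called. The part of these values in the members' values was not tested.

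When edgeR was fitted on the siNT and siHOXB-AS3 libraries alone, without the spread of the siHOXA-AS3 pair, it called those 6 members, 2 higher and 4 lower, or 14.6% where 23.3% of all genes were called. The share of members is thus below the background. The same 6 were called over the libraries that remained without either siHOXA-AS3 library (22.7% and 22.6% of all genes). CBX2, a PRC1 chromodomain subunit that compacts chromatin, held 88 and 66 counts in siNT, 91 and 41 in siHOXA-AS3 and 39 and 24 in siHOXB-AS3. In CPM these are 3.30 and 4.08, 3.84 and 2.40, and 1.60 and 1.12, so the siHOXB-AS3 libraries were the lowest. The fold change was -1.42 ± 0.36 on the log2 scale, 62.7% below siNT (edgeR adjusted p = 0.189 over all 6 libraries and 0.00166 over these 4). With the GC trend removed it was the only member called in this comparison (edgeR adjusted p = 0.0137, 13.3% of all genes called). The difference therefore rests on a transcript with few counts.

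BMI1, the PCGF subunit of canonical PRC1, is counted in a row with COMMD3 and their readthrough transcript, so the values cannot be assigned to BMI1 alone. The row had 183 and 171 CPM in siNT, 150 and 308 in siHOXA-AS3 and 131 and 138 in siHOXB-AS3. The siHOXB-AS3 pair was the lowest and the siHOXA-AS3 pair straddled siNT (log2 fold change in siHOXB-AS3 -0.40 ± 0.31, edgeR adjusted p = 0.679 over all 6 libraries and 0.0037 over 4). In FPKM the row went from 98.3 and 93.0 in siNT to 49.6 and 52.7 in siHOXB-AS3, a larger step than in CPM. Of the 6 PCGF rows, BMI1 included, 3 were lower without overlap after siHOXB-AS3 (30.9% of all genes were), 3 overlapped siNT and 0 were called, with values from -0.40 to -0.03. PCGF3 had 52.6 and 50.3 CPM against the siNT values above (-0.27 ± 0.17, edgeR adjusted p = 0.585), and was lower than in siHOXA-AS3 too (-0.41 ± 0.17, edgeR adjusted p = 0.256). JARID2 stood at 9.95 and 8.51 CPM in siHOXB-AS3, likewise below all other libraries (-0.30 ± 0.21 against siNT, edgeR adjusted p = 0.636).

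The expressed PHC genes lay on opposite sides of siNT. PHC2, in a row shared with the microRNA gene MIR3605, had 112 and 122 CPM in siNT, 188 and 114 in siHOXA-AS3 and 93.5 and 94.1 in siHOXB-AS3. It was lowest in siHOXB-AS3 (-0.32 ± 0.25, edgeR adjusted p = 0.671 over 6 libraries and 0.0226 over 4). PHC3 had 96.4 and 81.6 in siNT, 92.1 and 109 in siHOXA-AS3 and 121 and 121 in siHOXB-AS3, where it was highest (0.44 ± 0.18, edgeR adjusted p = 0.371 and 0.004). The PHC2 to PHC3 ratio in FPKM was 5.94 and 7.67 in siNT and 3.96 and 3.98 in siHOXB-AS3. In siHOXA-AS3 this ratio was 10.5 and 5.35, on either side of siNT.

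CBX6, another chromodomain reader, had 15.5 and 12.8 CPM in siNT, 16.5 and 7.42 in siHOXA-AS3 and 21.1 and 17.4 in siHOXB-AS3, which was the highest pair (0.44 ± 0.37, edgeR adjusted p = 0.701 and 0.0458). MEN1 had 38.2 and 38.9 in siNT, 40.5 and 31.0 in siHOXA-AS3 and 29 and 28.1 in siHOXB-AS3, below all other libraries (-0.43 ± 0.20, edgeR adjusted p = 0.463 and 0.0133). EED had 15.3 and 11.9 in siNT, 9.97 and 13.8 in siHOXA-AS3 and 17.8 and 16.9 in siHOXB-AS3 (0.35 ± 0.25, edgeR adjusted p = 0.641 and 0.123). Of the PRC2 enzymes, EZH2 overlapped siNT after siHOXB-AS3, with a log2 fold change of 0.05 ± 0.20 (edgeR adjusted p = 0.951). Its paralog EZH1 was above siNT without overlap, at 0.17 ± 0.19 (edgeR adjusted p = 0.787). The 6 Trithorax methyltransferases lay between -0.14 and 0.15, and none was called in either fit. KDM6A and KDM6B were both above siNT without overlap, at 0.29 ± 0.18 and 0.20 ± 0.23, and neither was called.

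Directly between the KDs, edgeR called 0 of 41 members, where 1.57% of all genes were called, and DESeq2 called 0 (6.04% of all genes). On the siHOXA-AS3 and siHOXB-AS3 libraries alone edgeR called 0 members (0.0156% of all genes). Without overlap, 12 members were higher in siHOXB-AS3 (background 22.8%) and 9 lower (background 22.5%). At an unadjusted p under 0.05 there were 6 (14.6%, against 18.4%). RBBP4 and PCGF1 were higher in siHOXB-AS3, and CBX2, the row of BMI1 and COMMD3, PHC2 and PCGF3 were lower. The values ran from -1.20 ± 0.36 for CBX2 (edgeR adjusted p = 0.153) to 0.68 ± 0.37 for CBX6 (edgeR adjusted p = 0.391). PCGF1 was 0.59 ± 0.18 higher in siHOXB-AS3 (edgeR adjusted p = 0.161). The BMI1 row and PHC2 were 0.77 ± 0.31 and 0.68 ± 0.25 below siHOXA-AS3. These values turned on which siHOXA-AS3 library was kept. The BMI1 row was at -1.19 without replicate 1 and -0.17 without replicate 2, and PHC2 at -0.27 and -1.01. CBX6 was likewise at 1.38 without replicate 1 and 0.22 without replicate 2. Without replicate 1 edgeR called 16 members between the KDs (39.0%, against 37.8% of all genes), and without replicate 2 it called 21 (51.2%, against 36.0%). The 8 members in both lists included 5 with opposite directions, SUZ12, RNF2, PCGF2, KMT2D and KMT2B, and 3 with the same, RBBP4, PCGF1 and PCGF3. With the GC trend removed edgeR called 12 members (29.3%, against 25.5% of all genes), among them EZH2, which was 0.44 higher in siHOXB-AS3 (edgeR adjusted p = 0.0108), and CTCF (edgeR adjusted p = 0.0377).

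Related chromatin genes outside the 41 were read in the same way. Of 19 other Polycomb genes (such as KDM2B, BCOR, RYBP and ASXL1), 18 other Trithorax genes, 13 SWI/SNF subunits and 10 cohesin genes, 0 were called against siNT by edgeR over all 6 libraries, in either KD. Without overlap in siHOXB-AS3, where 30.9% of all genes were higher and 30.9% lower, 8 other Polycomb genes were higher and 4 lower, 6 other Trithorax genes higher and 3 lower, 1 SWI/SNF subunit higher and 9 lower, and 2 cohesin genes higher and 3 lower. Over the siNT and siHOXB-AS3 libraries alone, where 23.3% of all genes were called, edgeR called 4, 2, 4 and 2 genes of these lists in turn. The 19 tested rows of coding HOXA and HOXB genes, the known targets of these regulators, had medians of -0.15 after siHOXA-AS3 and -0.32 after siHOXB-AS3. Of these rows, 13 were lower and 3 higher without overlap in siHOXB-AS3 (30.9% of all genes on each side). Over all 6 libraries 0 were called, and over the siNT and siHOXB-AS3 libraries 8 were called, 7 lower and 1 higher (23.3% of all genes).

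**Figure D5:**
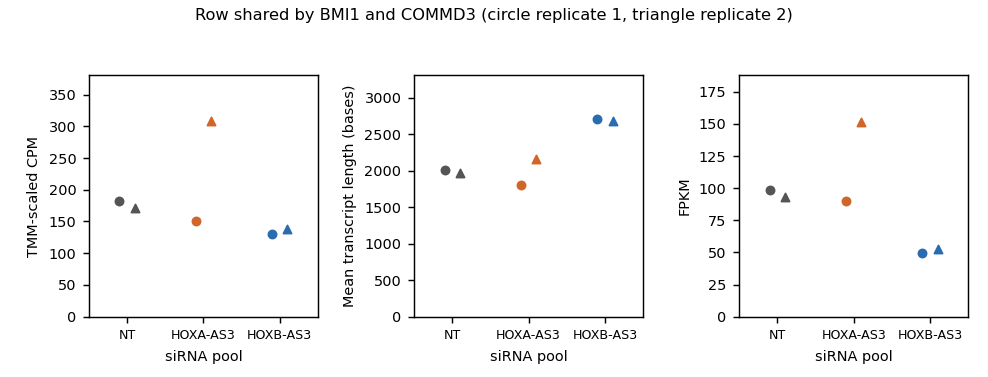
TMM-scaled CPM, RSEM mean transcript length in bases, and FPKM of the row shared by BMI1 and COMMD3 in each library (axes from 0). In siHOXB-AS3 the CPM is lower, the mean length is longer (2712 and 2684 bases against 2009 and 1977 in siNT) and the FPKM is about 50.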

How the data were processed

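RNA-seq of 6 HT-29 libraries was analysed, with conditions taken from the labels. The authors deposited RSEM expected counts (estimated fragments per row, not normalised), TPM and FPKM (scaled by RSEM to length and library size) on RefSeq genes; the submitters' processing notes name RSEM and hg19. Neither aligner nor strandedness was given in the sources used here. The deposited TPM values were not used. Of 27434 rows, 627 join several genes. At most 0.0474% of a library's counts lay in unnamed rows.

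Expected counts were rounded and tested in R 4.3.3 with edgeR 4.0.16 (filterByExpr with a minimum count of 10, TMM, robust quasi-likelihood test on all 6 libraries, Benjamini-Hochberg adjustment over 13034 genes, threshold 0.05). The fit was also run on simulated counts that had the same spread in all groups and no GC trend. That run cannot show how the fit handles the siHOXA-AS3 pair, whose libraries differed with GC. Alternatives used DESeq2 1.42.0, limma 3.58.1 on log2(FPKM + 0.1) and log2(FPKM + 1), other scalings and filters, a GC correction (GENCODE v29 transcripts, a value for 96.8% of genes tested), a replicate block and each library left out. The oligonucleotides were read from the study's supplementary tables. No coordinates are given, since the reference build differed from that of the files. The 41 members, the lists and the rule for named genes (the 3 highest and 3 lowest members per comparison among those without overlap between groups, EZH1 and EZH2, and any called member) were chosen with earlier results of these data known. SUZ12, RNF2, KMT2B, PHF1 and CTCF were given per library after their values were seen.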

Additional observations from a re-analysis of the deposited data

Results flagged for a closer look

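The mean transcript length that RSEM estimates for a row, a column outside the comparisons above, differed for the row of BMI1, COMMD3 and their readthrough. It was 2009 and 1977 bases in siNT, 1802 and 2166 in siHOXA-AS3 and 2712 and 2684 in siHOXB-AS3, a log2 shift of 0.44 in siHOXB-AS3 against siNT. Of the 7596 tested rows with more than 1 transcript, 2.01% shifted by at least 0.2 and 1.66% did so without overlap between the groups. Among the 29 members with such rows, BMI1 was the 1 that did. Weighting by transcript length is what parts the row's FPKM from its CPM, and the share of each transcript was not analysed here.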

How the results depend on the processing

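Each count of called members (0 in all 3 comparisons) and each named member was recomputed under 17 alternatives. The counts stayed at 0 with DESeq2, RLE factors, library totals, no filter, a mean FPKM of at least 1 and both limma fits. With the GC trend removed they were 2, 1 and 12 for siHOXA-AS3 against siNT, siHOXB-AS3 against siNT and siHOXB-AS3 against siHOXA-AS3, and with only the groups compared 0, 6 and 0. With 1 library left out, they ranged from 0 to 12, 0 to 6 and 0 to 21 (the last where 36.0% of all genes were called), and all values above 0 came from leaving out a siHOXA-AS3 library. Same-numbered libraries did not deviate together (r = -0.35, -0.14 and 0.15). These deviations also follow GC, with opposite signs in siNT and siHOXA-AS3, so they cannot settle whether the numbers pair the libraries. The replicate block gave 0 called members in each comparison, and a block with the siNT numbers crossed, chosen after seeing the data, gave 0, 0 and 1 (RBBP4). The members' medians (-0.06, -0.02 and 0.05) moved beyond the spread between replicates in 11 of 51 refits. Outside the fits with a library left out, these were -0.093, -0.063 and 0.086 with limma on log2(FPKM + 0.1), -0.066 for siHOXB-AS3 against siNT with library totals, 0.057 and 0.12 for siHOXB-AS3 against siNT and between the KDs with the GC trend removed, and 0.12 between the KDs with crossed numbers. With 1 library left out the medians ranged from -0.094 to -0.0069, -0.018 to 0.010 and 0.018 to 0.16. Among single named members, 687 of 762 refits kept the direction and the side of the threshold, 57 passed it and 18 changed sign. For siHOXA-AS3 against siNT these, with 1 library left out, ranged from -0.20 to 0.069 for EZH1, -0.45 to 0.0074 for EED, -0.23 to 0.80 for BMI1, -0.61 to 0.078 for CBX2, -0.94 to 0.22 for CBX6, -0.044 to 0.69 for PHC2 and -0.31 to 0.078 for MEN1. For siHOXB-AS3 against siNT they ranged from -0.011 to 0.12 for EZH2, -0.078 to 0.043 for RBBP4, -0.12 to 0.13 for PHF19 and -0.071 to 0.010 for PCGF1, and for KDM6B between the KDs from -0.37 to 0.14. PHF19 was also -0.046 with library totals, -0.019 with a mean FPKM of at least 1 and -0.0040 with the replicate block, and PCGF1 0.057 with the GC trend removed. With 2 libraries a group, a call rests on few degrees of freedom, and CBX2, CBX7, PCGF6 and PHC1 rest on low counts. Other causes were not tested.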
